A study of Mus musculus with 17 samples.

Results

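Pancreatic β cells make insulin as a precursor that is cut and trimmed inside secretory granules, and 7 genes of that processing route are described here: Pcsk1, Pcsk2, Furin, Cpe, Pam, Scg5 and Pcsk1n. They were taken by gene symbol from 55357 genes in the files, all 7 had an entry, and all 7 passed the filter on low counts. The libraries came from male mouse islets on a C57BL/6 background that were kept for 3 days at a glucose concentration of 2.8 mM or of 16.7 mM, after which β cells carrying the red reporter tdTomato were sorted by flow cytometry and their polyadenylated RNA was sequenced from low input. Control mice, labelled WT, carried RIP-Cre, in which a rat insulin promoter drives Cre recombinase, and the Rosa26 tdTomato reporter. Pcbp2 βKO mice, labelled KO, carried the same driver and reporter and in addition floxed Pcbp2 alleles (RIP-Cre;Pcbp2 fl/fl;tdTomato), so that the gene for the poly(C)-binding protein PCBP2 was deleted in the cells that express the driver. There were 3 control samples at 2.8 mM, 4 control samples at 16.7 mM, and 5 Pcbp2 βKO samples at each glucose concentration, 17 in all. Every sample therefore carried the Cre driver and the reporter, islet culture preceded all of the measurements, and the sort selected on the reporter and not on insulin.

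Proinsulin is a single chain in which a connecting peptide joins the B and A chains of insulin. Prohormone convertase 1/3, encoded by Pcsk1, and prohormone convertase 2, encoded by Pcsk2, cut on the carboxyl side of paired basic residues at its junctions, carboxypeptidase E, encoded by Cpe, then removes the exposed basic residues, and in other peptides the Pam product turns a carboxyl-terminal glycine into an amide. Furin is the related convertase of the trans-Golgi network that acts on many constitutively secreted proteins. Scg5 encodes 7B2, which escorts the Pcsk2 zymogen and controls its activation, and Pcsk1n encodes proSAAS, a precursor whose products inhibit prohormone convertase 1/3.

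The libraries held between 47385513 and 82419400 estimated counts, and the 7 genes together took between 0.796% and 1.40% of them. Levels within a gene are given in CPM, counts scaled to a common library total after TMM factors have brought the bulk of genes to the same level between libraries. Pcbp2 itself ranged from 50.7 to 73.4 CPM in control cells and from 15.5 to 19.2 CPM in Pcbp2 βKO cells at 2.8 mM, and from 35.0 to 45.4 and 5.81 to 10.03 CPM at 16.7 mM, so the genotypes did not overlap at either concentration. Ins2 alone took 4.92% to 10.4% of the counts at 2.8 mM and 18.2% to 25.7% at 16.7 mM across both genotypes, so that shares of the whole library left for all other genes were smaller at 16.7 mM. Summed markers of islet α cells (5 genes, led by Gcg) ran from 838 to 2723 CPM in control and from 1727 to 9408 CPM in Pcbp2 βKO samples at 2.8 mM, and from 357 to 1591 and from 280.2 to 1619 CPM at 16.7 mM. The summed δ cell, PP cell and macrophage markers were also highest in the Pcbp2 βKO samples at 2.8 mM (medians of 829, 1619 and 95.99 CPM against 383, 825 and 30.7 CPM in control), while the endothelial sum stayed at or under 1.15 CPM in every sample. The ductal sum (Krt19, Krt7 and Spp1) ran from 473 to 543 CPM in control and from 450 to 564 CPM in Pcbp2 βKO samples at 2.8 mM. At 16.7 mM it ran from 413 to 1182 and from 384 to 595 CPM. Group means of Krt19 alone lay between 0.272 and 0.933 CPM. Pcsk2, Cpe, Scg5, Pcsk1n and Pam are expressed by other islet endocrine cells as well, and in a sorted population fewer cells of a type and less RNA per cell cannot be told apart. Control replicate 4 and Pcbp2 βKO replicates 4 and 5 at 16.7 mM were known from earlier work on these data to lie apart from their groups. Their TMM factors were 1.01, 0.939 and 0.952, against 0.752 to 0.860 in the other samples at 16.7 mM, and results are also given without them. Nothing in the labels says which samples share an animal or a batch, so p-values measure the spread between these samples.

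On the TPM scale, which allows for transcript length and gives a share of the whole library, Cpe was the most abundant of the 7 transcripts in all 4 groups and Furin the least. In control cells at 2.8 mM the mean was 1808 TPM for Cpe, 681.5 for Scg5, 358.5 for Pcsk2, 119 for Pcsk1, 88.3 for Pam, 74.2 for Pcsk1n and 1.71 for Furin. The sample ranges of Pcsk1 and Pam overlapped there, as did those of Pam and Pcsk1n, and the other neighbours in the order did not overlap. At 16.7 mM the order of the control means was the same, but Scg5 (501 ± 58.3 TPM, SD, n = 4) and Pcsk2 (491 ± 143) now overlapped, and Pcsk2 overlapped with Pcsk1 (260.2 ± 80.2). In Pcbp2 βKO cells at 2.8 mM Pcsk1 had the sixth place, at 55.1 ± 17.1 TPM (SD, n = 5), and Pcsk1n the fourth, at 137 ± 20.7. Pcsk1n overlapped with neither of its neighbours in that group, Pcsk2 above it and Pam below it, while Pam and Pcsk1 overlapped. At 16.7 mM the Pcbp2 βKO order was again that of the control cells, with Pcsk1 at 164 ± 52.0 TPM overlapping with Pam.

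The first question was how 3 days of high glucose changed the 7 transcripts in control cells. Pcsk1 and Pcsk2, the convertases of the granule, were both higher at 16.7 mM, and the other 5 genes did not pass the test. A gene was called when edgeR's quasi-likelihood test gave a Benjamini-Hochberg adjusted p under 0.05 over all 22784 genes tested and the fold change was over 1.5. So 2 of 7 members were called higher and 0 lower, against 7.15% of all genes called higher and 13.8% called in either direction. The sample ranges at the 2 concentrations were apart for 3 of 7 members, Pcsk1, Pcsk2 and Cpe, against 24.1% of all genes. The median log2 fold change was 0.56 over the members and 0.04 over all genes.

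**Figure D1:**
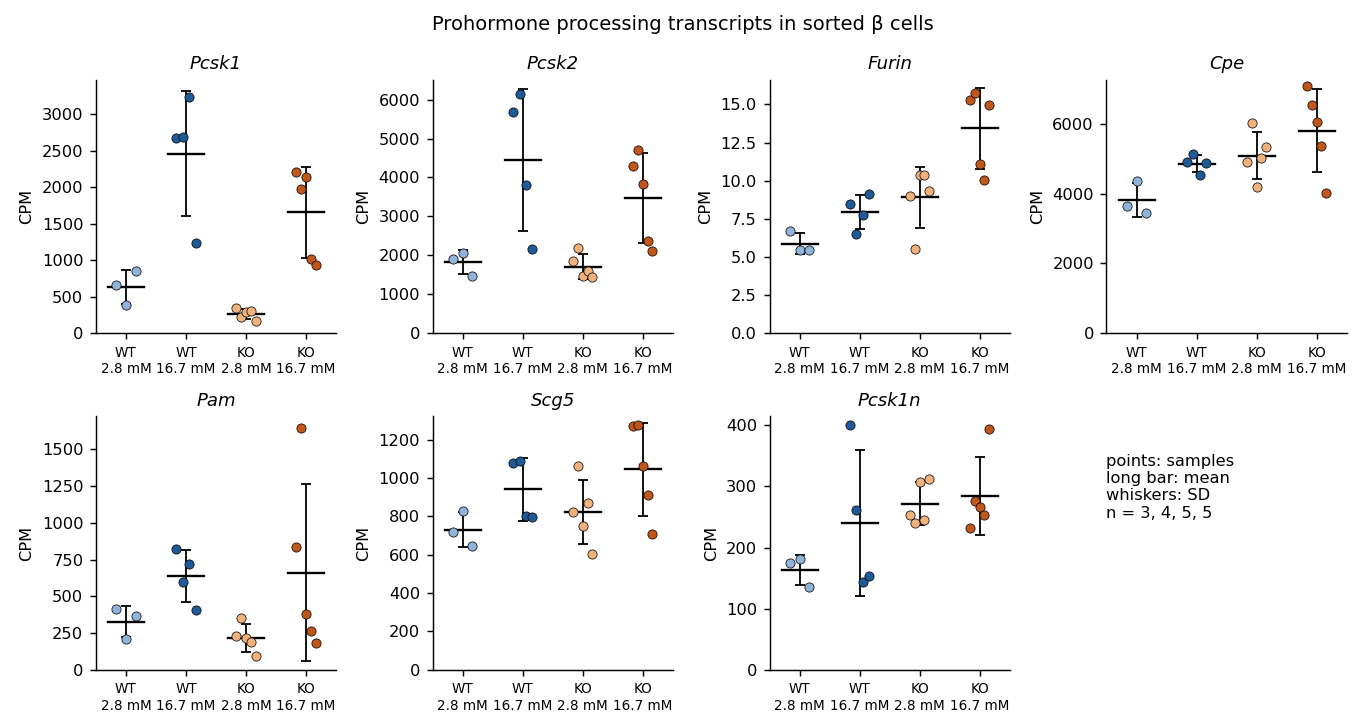
TMM-scaled expression (CPM, linear axes from 0) of the 7 transcripts in each of the 17 samples, by genotype (WT, control; KO, Pcbp2 βKO) and glucose concentration. Points are samples, long bars means and whiskers SD (n = 3, 4, 5 and 5 from left to right). Pcsk1 lies between 164 and 854 CPM at 2.8 mM and between 935 and 3236 CPM at 16.7 mM.

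Pcsk1 stood at 655, 390.0 and 854 CPM in the control samples at 2.8 mM. It stood at 2673, 2696, 3236 and 1233 CPM in those at 16.7 mM. Every high-glucose sample was above every low-glucose one, although replicate 4 lay well below the other 3. Pcsk1 was 3.88-fold higher at 16.7 mM (log2 fold change 1.96, SE 0.385, edgeR adjusted p = 0.0031). Leaving out single libraries kept the log2 fold change between 1.70 and 2.23, and without control replicate 4 and Pcbp2 βKO replicates 4 and 5 it was 2.15 (edgeR adjusted p = 5.98e-05).

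Pcsk2 gave 1907, 2066 and 1472 CPM at 2.8 mM and 5679, 6134, 3811 and 2173 CPM at 16.7 mM in control cells. The groups did not overlap, but replicate 4 at 16.7 mM was close to the low-glucose samples. Pcsk2 was 2.45-fold higher at 16.7 mM (log2 fold change 1.29, SE 0.327, edgeR adjusted p = 0.0125). The call was lost without control replicate 3 at 2.8 mM (1.16, edgeR adjusted p = 0.0539) and when TPM values were tested in limma (0.41, adjusted p = 0.248).

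The remaining convertase, Furin, was scarce, with 365 to 1163 estimated counts per library. It gave 6.69, 5.48 and 5.44 CPM at 2.8 mM and 8.49, 6.50, 7.73 and 9.09 CPM at 16.7 mM in control cells. The ranges overlapped and the log2 fold change of 0.44 (SE 0.227) did not pass the test (edgeR adjusted p = 0.212).

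Cpe, the carboxypeptidase, gave 3638, 4362 and 3430.2 CPM at 2.8 mM and 4896, 5125, 4529 and 4890.3 CPM at 16.7 mM in control cells. These ranges did not overlap, but the difference was 1.28-fold (log2 fold change 0.35, SE 0.182, edgeR adjusted p = 0.211). Pam, the amidating enzyme, gave 411, 208 and 364 CPM at 2.8 mM against 819.5, 598, 719.6 and 408 CPM at 16.7 mM. The replicate 4 value lay inside the low-glucose range, and the log2 fold change of 0.96 (SE 0.580) was not called (edgeR adjusted p = 0.296).

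Scg5, the Pcsk2 escort, gave 719, 829.6 and 645 CPM at 2.8 mM and 1078, 1088, 801 and 799 CPM at 16.7 mM, a log2 difference of 0.36 (SE 0.214, edgeR adjusted p = 0.279). Pcsk1n gave 174, 180.5 and 135 CPM at 2.8 mM and 401, 261, 144 and 153 CPM at 16.7 mM, where replicates 3 and 4 lay among the low-glucose samples. Its log2 difference was 0.55 (SE 0.280, edgeR adjusted p = 0.201).

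In this comparison samples of 1 replicate number were taken as pairs in further fits, although the labels do not give a pairing. Over genes their departures from the group mean correlated at r = 0.199, 0.123 and 0.258. Same-numbered samples of different genotypes reached 0.244 at 2.8 mM and 0.354 at 16.7 mM, so these values do not establish shared animals. With the number as a block in a fit of the 2 groups, which leaves control replicate 4 at 16.7 mM without a partner, 4 members were called higher in place of 2. Pam was then at 1.16 on the log2 scale (edgeR adjusted p = 0.000158) and Pcsk1n at 0.60 (edgeR adjusted p = 0.024), beside Pcsk1 and Pcsk2. With the block in the fit of all 17 samples Pam was called (1.13, edgeR adjusted p = 0.0471) and Pcsk1n was not.

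The same glucose contrast in Pcbp2 βKO cells gave higher Pcsk1, Pcsk2, Pam and Furin, with Cpe, Scg5 and Pcsk1n not called. That is 4 of 7 members called higher and 0 lower, against 13.4% of all genes called higher and 23.8% called in either direction. Only for Pcsk1 were the sample ranges apart, 1 of 7 members, against 21.6% of all genes. The median log2 fold change was 0.59 over the members and 0.01 over all genes.

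Low-glucose Pcbp2 βKO samples had 343, 222, 292, 297 and 164 CPM of Pcsk1. Those at 16.7 mM had 2211, 1978, 2134, 1021 and 935 CPM. The lowest high-glucose value was above every low-glucose value, and replicates 4 and 5 were the low ones at 16.7 mM. Pcsk1 was 6.28-fold higher at 16.7 mM (log2 fold change 2.65, SE 0.318, edgeR adjusted p = 1.54e-05). It remained called in every alternative fit, at 1.56 with TPM values in limma at the lowest.

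Pcsk2 gave 1856, 2186, 1475, 1606 and 1429 CPM at 2.8 mM and 4308, 4711, 3824, 2372 and 2116 CPM at 16.7 mM in Pcbp2 βKO cells. Replicate 5 at 16.7 mM was below the highest low-glucose sample, so the ranges overlapped. Pcsk2 was 2.03-fold higher (log2 fold change 1.02, SE 0.264, edgeR adjusted p = 0.00674), and its sign turned with TPM values in limma (-0.06, adjusted p = 0.834). The summed α cell markers, which include no member, were lower at 16.7 mM in the same samples (medians of 5469 and 525 CPM), and their part in the Pcsk2 value was not tested.

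Pam gave 231, 353, 215, 189 and 92.2 CPM at 2.8 mM and 835, 1645, 381, 266 and 181 CPM at 16.7 mM in Pcbp2 βKO cells. At 16.7 mM replicate 2 was far above the other 4 samples, and replicates 4 and 5 lay within the low-glucose range. Pam was 3.06-fold higher (log2 fold change 1.61, SE 0.480, edgeR adjusted p = 0.016), and without Pcbp2 βKO replicate 2 at 16.7 mM the difference was 0.94 and was not called (edgeR adjusted p = 0.0916). Furin gave 8.97, 5.49, 10.4, 10.3 and 9.34 CPM at 2.8 mM and 15.3, 15.8, 11.1, 10.05 and 14.9 CPM at 16.7 mM. Its 1.51-fold difference (log2 fold change 0.59, SE 0.186, edgeR adjusted p = 0.0218) lay just past the fold threshold. It was not called in 9 of 12 alternative fits, nor without Pcbp2 βKO replicate 2 at 2.8 mM or Pcbp2 βKO replicate 1, 2 or 5 at 16.7 mM (log2 fold changes of 0.46 to 0.55).

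Cpe gave 4896, 6021, 4181, 5031 and 5331 CPM at 2.8 mM and 7078, 6541, 6061, 5355 and 4007 CPM at 16.7 mM in Pcbp2 βKO cells. Replicate 5 at 16.7 mM was the lowest of all 10 samples, and the log2 difference was 0.19 (SE 0.149, edgeR adjusted p = 0.38). Scg5 gave 823, 1066, 749.9, 872 and 606 CPM at 2.8 mM against 1270.5, 1276, 1062, 913 and 711 CPM at 16.7 mM, a log2 difference of 0.35 (SE 0.176, edgeR adjusted p = 0.155). Pcsk1n gave 253, 239.5, 308, 246 and 312 CPM at 2.8 mM against 231, 276, 267, 254 and 395 CPM at 16.7 mM, where replicate 5 stood apart from the other 4. The log2 difference of Pcsk1n was 0.07 (SE 0.229, edgeR adjusted p = 0.869).

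**Figure D2:**
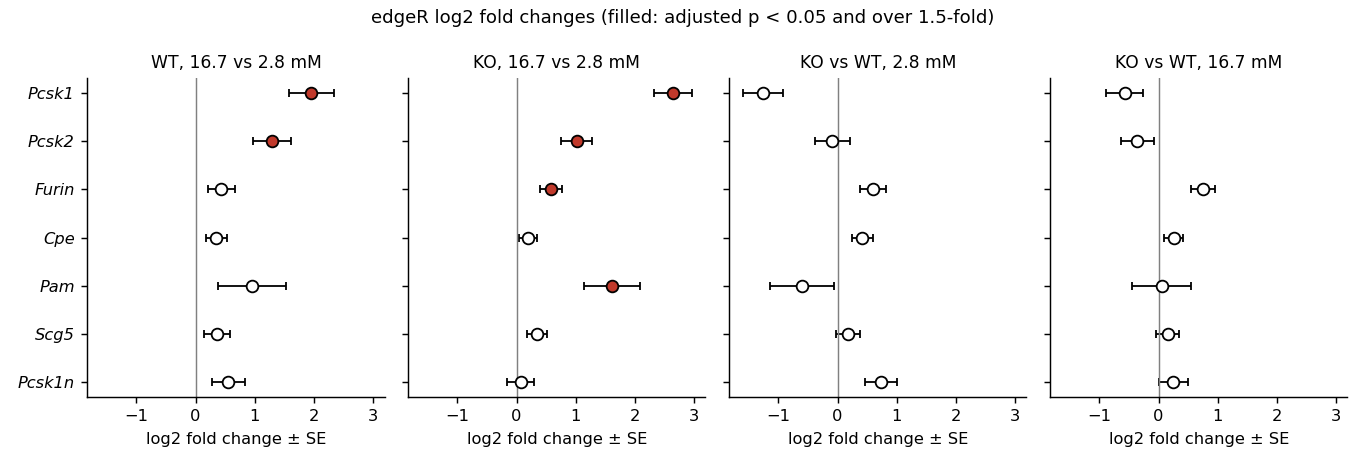
Log2 fold changes (points) with SE (whiskers) of the 7 transcripts from the edgeR fit of all 17 samples, 1 panel for each comparison (WT, control; KO, Pcbp2 βKO), on a shared axis. Filled points passed an adjusted p of 0.05 and a 1.5-fold change. Pcsk1 has the largest glucose difference in both genotypes (1.96 and 2.65) and the lowest value of the knockout comparison at 2.8 mM (-1.26).

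The direction of the smaller glucose differences depended on the scaling between libraries. TPM values, like CPM on total counts alone, are shares of the whole library, and in them the median of all genes fell with glucose, by 0.24 in control and 0.33 in Pcbp2 βKO cells on the log2(TPM + 1) scale. Of the genes called on that scale 3.58% were higher in control cells and 3.91% in Pcbp2 βKO cells, against 51.7% and 56.3% with TMM. On the TPM scale Cpe, Scg5, Pcsk1n and Furin were lower at 16.7 mM in both genotypes. In Pcbp2 βKO cells 1 member was then called higher, Pcsk1 (1.56, limma adjusted p = 0.000293), and 3 were called lower, Cpe (-0.85, adjusted p = 0.000489), Pcsk1n (-0.96, adjusted p = 0.000461) and Scg5 (-0.69, adjusted p = 0.00482). Relative to the all-gene median the order of the members was the same in its ends, with Pcsk1 highest and Pcsk1n lowest in Pcbp2 βKO cells under either scale.

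**Figure D3:**
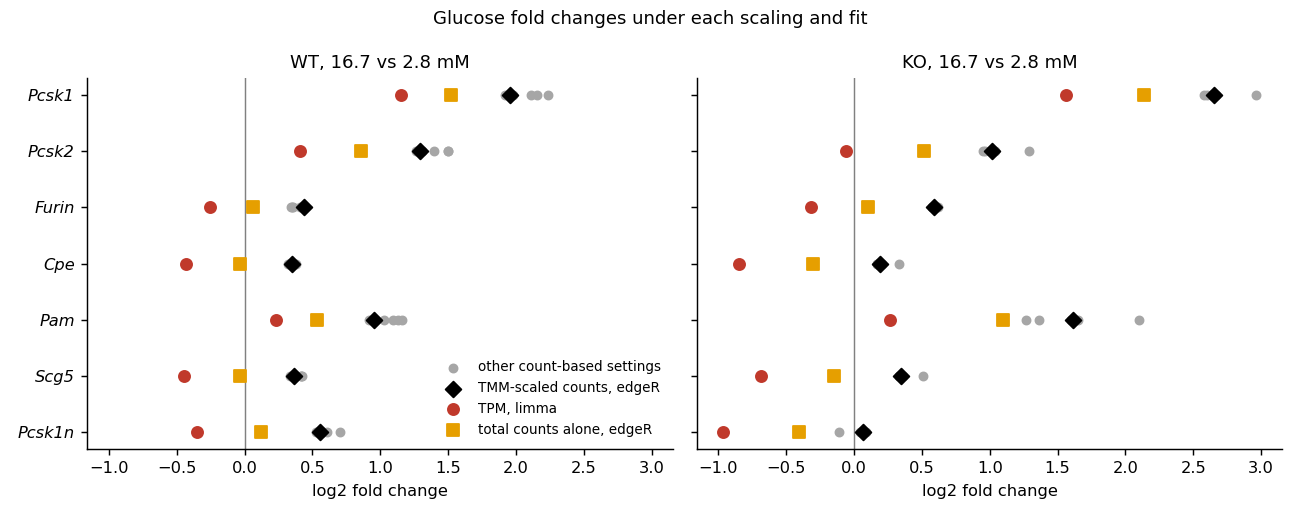
Log2 fold change between 16.7 mM and 2.8 mM for the 7 transcripts in control (WT) and Pcbp2 βKO (KO) cells under each scaling and fit, leaving aside the fits without a single library. Black diamonds are TMM-scaled counts in edgeR, orange squares total counts alone, red circles log2(TPM + 1) in limma and grey points the other count-based fits. Pcsk1 stays above 1 throughout, whereas Cpe moves from 0.35 to -0.43 in control cells and from 0.19 to -0.85 in Pcbp2 βKO cells.

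Ratios between genes of the same library do not depend on that scaling. They can still follow the mix of cells, since Pcsk2, Scg5 and Pcsk1n are also expressed by other islet endocrine cells. In Pcbp2 βKO cells the median summed α, δ and PP cell markers were 5469, 829 and 1619 CPM at 2.8 mM. At 16.7 mM they were 525, 341 and 505 CPM, and their part in the ratios was not tested. With the 4 chosen ratios in 4 comparisons, 16 exact two-sided permutation tests over samples were made on log2 ratios of estimated counts, and 3 passed an adjusted p of 0.05, all of them the glucose contrast in Pcbp2 βKO cells. The smallest p that the design allows is 0.0571 for glucose in control cells, so no ratio could pass there. Without any single Pcbp2 βKO sample, or without the 3 samples that lie apart, the smallest p is larger and none of the 3 passed.

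Pcsk1 counts per Pcsk2 count were 0.185, 0.101, 0.198, 0.185 and 0.115 in Pcbp2 βKO cells at 2.8 mM and 0.513, 0.420, 0.558, 0.430 and 0.442 at 16.7 mM. All 5 high-glucose samples were above all 5 low-glucose samples, 3.11-fold on average (exact permutation p = 0.00794, adjusted p = 0.0423). In control cells the ratio was 0.344, 0.189 and 0.580 at 2.8 mM and 0.471, 0.440, 0.849 and 0.567 at 16.7 mM, with overlapping ranges (1.68-fold, exact permutation p = 0.229, adjusted p = 0.305). At 2.8 mM the ratio in Pcbp2 βKO cells was 0.451 of that in control cells, and the ranges overlapped through the second control replicate (exact permutation p = 0.0714, adjusted p = 0.143).

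Pcsk1n counts per Pcsk1 count, the transcript of the proSAAS precursor against that of the enzyme its products inhibit, had the largest differences of the 4 ratios. The ratio was 0.266, 0.463 and 0.158 in control cells at 2.8 mM and 0.150, 0.0970, 0.0446 and 0.124 at 16.7 mM. In Pcbp2 βKO cells it was 0.737, 1.08, 1.05, 0.828 and 1.90 at 2.8 mM and 0.105, 0.139, 0.125, 0.248 and 0.422 at 16.7 mM. At 16.7 mM there was therefore a 5.86-fold lower ratio in Pcbp2 βKO cells, with no overlap (exact permutation p = 0.00794, adjusted p = 0.0423), and a 2.84-fold lower one in control cells, also with no overlap (exact permutation p = 0.0571, adjusted p = 0.143). At 2.8 mM the ratio was 3.93-fold higher in Pcbp2 βKO than in control cells without overlap, at the smallest p of that design (exact permutation p = 0.0357, adjusted p = 0.143).

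Scg5 counts per Pcsk2 count, the escort against its convertase, lay between 0.377 and 0.438 in control cells at 2.8 mM and between 0.177 and 0.368 at 16.7 mM. In Pcbp2 βKO cells they lay between 0.424 and 0.543 at 2.8 mM and between 0.271 and 0.385 at 16.7 mM. The ratio was 1.55-fold lower at 16.7 mM in Pcbp2 βKO cells (exact permutation p = 0.00794, adjusted p = 0.0423) and 1.79-fold lower in control cells (exact permutation p = 0.0571, adjusted p = 0.143), with no overlap in either. Insulin counts per Pcsk1 count (Ins1 plus Ins2) had geometric means of 150.4 and 136 in control and 209.8 and 209.6 in Pcbp2 βKO cells at 2.8 and 16.7 mM, with overlapping ranges in every comparison. The largest difference among these was 1.55-fold, between the genotypes at 16.7 mM (exact permutation p = 0.143, adjusted p = 0.208).

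**Figure D4:**
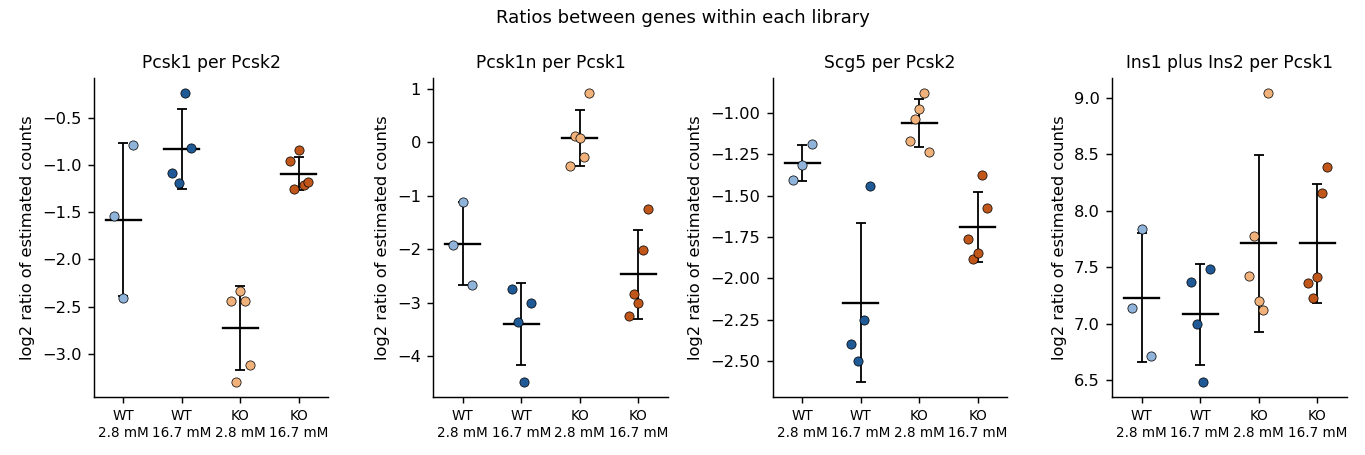
Log2 ratio of the estimated counts of the named genes within each of the 17 libraries, by genotype (WT, control; KO, Pcbp2 βKO) and glucose concentration. Points are samples, long bars means and whiskers SD. Pcsk1n per Pcsk1 is highest in Pcbp2 βKO cells at 2.8 mM (mean log2 ratio 0.08) and lowest in control cells at 16.7 mM (-3.40), while insulin per Pcsk1 overlaps between all groups.

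The second question was whether loss of Pcbp2 changed the 7 transcripts at a given glucose concentration. At 2.8 mM 0 of 7 members were called, against 2.04% of all genes called in either direction. Pcsk1 and Pcsk1n had sample ranges that did not overlap between genotypes, 2 of 7 members against 10.9% of all genes. The median log2 fold change was 0.17 over the members and 0.03 over all genes.

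The highest Pcbp2 βKO sample at 2.8 mM had 343 CPM of Pcsk1 and the lowest control sample 390.0 CPM. The control mean was 2.40-fold the Pcbp2 βKO mean on the fitted scale (log2 fold change -1.26, SE 0.338), with an edgeR adjusted p of 0.0608, just over the threshold. An unadjusted p under 0.05 was reached by 4 of 7 members in edgeR (Pcsk1, Pcsk1n, Furin and Cpe). The share of all genes that reached it was not counted, so no excess among the members can be read from this. DESeq2 called 210 genes higher and 625 lower of 22784 tested, and 1 member, Pcsk1. The adjusted p fell below 0.05 in DESeq2 (0.013), in edgeR without the filter (0.00993), with only the 2 groups in the edgeR fit (0.0326) and without control replicate 4 and Pcbp2 βKO replicates 4 and 5 at 16.7 mM (0.00554), at log2 differences of -1.26, -1.27, -1.28 and -1.25. With the replicate number as a block the difference was smaller, -1.08 in the 2 groups, where it was called (edgeR adjusted p = 0.00207), and -0.88 over all samples, where it was not (edgeR adjusted p = 0.0702). That block matches control and Pcbp2 βKO samples by number alone, and the labels give no such pairing. Departures of same-numbered samples correlated at r = 0.0474, 0.244 and 0.12 here, so no conclusion is drawn from the block fits. Pcsk1 was also not called on total counts alone (-1.16, edgeR adjusted p = 0.0692) or with limma on log2(TPM + 1) (-1.08, adjusted p = 0.135) or log2(TPM + 0.1) (-1.09, adjusted p = 0.143). Nor was it called in edgeR with RLE factors in place of TMM (adjusted p = 0.061), with counts scaled from TPM by length (0.0622) or with Ins1 and Ins2 left out of the scaling (0.0681). Leaving out single libraries gave -1.52 to -0.99, and Pcsk1 was called without control replicate 2 at 2.8 mM (edgeR adjusted p = 0.0375), control replicate 4 at 16.7 mM (0.0307) or Pcbp2 βKO replicate 5 at 16.7 mM (0.0413).

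Pcsk1n was 1.66-fold higher in Pcbp2 βKO than in control cells at 2.8 mM, with 239.5 to 312 CPM against 135 to 180.5 CPM (log2 fold change 0.73, SE 0.272, edgeR adjusted p = 0.223). It was called with only the 2 groups in the fit (edgeR adjusted p = 0.0316), also with the replicate block added (0.0187). No other alternative fit called it, with an adjusted p of 0.137 in DESeq2 and 0.175 in edgeR without the filter. The higher α, δ and PP cell marker sums of the Pcbp2 βKO samples at 2.8 mM stand beside the Pcsk1n value and beside those of Cpe (0.42, SE 0.175, edgeR adjusted p = 0.304) and Furin (0.60, SE 0.219, edgeR adjusted p = 0.212), and their part in them was not tested. Pcsk2 (-0.09, SE 0.301), Scg5 (0.17, SE 0.205) and Pam (-0.60, SE 0.534) had edgeR adjusted p-values of 0.95, 0.807 and 0.715.

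At 16.7 mM 0 of 7 members were called either, against 1.71% of all genes, and Furin was the 1 of 7 whose sample ranges did not overlap, against 4.49% of all genes. Furin, the only member with an unadjusted p under 0.05 there, lay between 10.05 and 15.8 CPM in Pcbp2 βKO and between 6.50 and 9.09 CPM in control samples, 1.69-fold higher on the fitted scale (log2 fold change 0.75, SE 0.200, edgeR adjusted p = 0.0662). DESeq2 called it (0.74, adjusted p = 0.0126), and so did edgeR without Pcbp2 βKO replicate 2 at 2.8 mM (adjusted p = 0.0268) or replicate 4 at 16.7 mM (adjusted p = 0.0425). No other of the 12 alternative fits called Furin. The edgeR adjusted p was 0.0641 without the 3 samples that lie apart, 0.0785 without the filter, 0.0959 with only the 2 groups and 0.108 on total counts alone. With limma on log2(TPM + 1) the adjusted p was 0.653. Pcsk1 was lower by 0.57 on the log2 scale in Pcbp2 βKO cells at 16.7 mM, within the spread (SE 0.316, edgeR adjusted p = 0.516), and Pcsk2 by 0.36 (SE 0.276, edgeR adjusted p = 0.698). Pam differed by 0.06 (SE 0.497), Scg5 by 0.15 (SE 0.187), Pcsk1n by 0.25 (SE 0.244) and Cpe by 0.26 (SE 0.159), with edgeR adjusted p-values of 0.985, 0.836, 0.782 and 0.585. The median was 0.15 over the members and 0.01 over all genes.

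Whether the glucose response itself differed between genotypes was tested by the interaction of genotype and glucose. No member was called, and 1 gene in all was, Ins1, which is 0.00439% of the genes tested. The largest interaction among the members was that of Pcsk1, whose log2 glucose difference was larger by 0.69 in Pcbp2 βKO cells (SE 0.467, edgeR adjusted p = 1). In edgeR 0 of 7 had an unadjusted p under 0.05, and DESeq2 called 0 of 7.

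The transcripts of Pcsk1 and Pcsk2, which rose with glucose in both genotypes on TMM-scaled counts, can be set beside their promoters. These are RefSeq windows on GRCm38.p6, 250 bases before to 50 after the start site, printed 5′ to 3′ on the gene's strand, and are shown because both genes moved together. Capitals mark each TGACG, the core of the cyclic AMP response element, on either strand, including where it lies within the full palindrome TGACGTCA.
Pcsk1 (chr13:75089607-75089906, plus strand): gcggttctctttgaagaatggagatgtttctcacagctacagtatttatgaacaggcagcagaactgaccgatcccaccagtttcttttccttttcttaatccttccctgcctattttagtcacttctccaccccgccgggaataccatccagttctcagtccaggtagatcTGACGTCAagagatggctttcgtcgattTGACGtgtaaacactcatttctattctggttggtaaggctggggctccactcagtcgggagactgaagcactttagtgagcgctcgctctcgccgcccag
Pcsk2 (chr2:143545883-143546182, plus strand): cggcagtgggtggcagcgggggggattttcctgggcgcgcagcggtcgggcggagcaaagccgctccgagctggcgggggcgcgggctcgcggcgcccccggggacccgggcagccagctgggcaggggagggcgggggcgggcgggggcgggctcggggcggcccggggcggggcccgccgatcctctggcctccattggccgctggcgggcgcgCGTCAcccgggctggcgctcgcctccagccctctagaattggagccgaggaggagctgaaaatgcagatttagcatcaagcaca

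The Pcsk1 window held the full palindrome from base -78 to -71 and a further TGACG at base -50, counted from the start site, and the Pcsk2 window held TGACG once, on the opposite strand, from base -34 to -30. Of all 32851 promoter windows of this length, 1.79% held TGACGTCA and 20.8% held TGACG on either strand. The windows of Scg5 and of 1 of the 2 Furin start sites held TGACG and no palindrome, and those of Pcsk1n and Pam held neither. A match in these letters is a description of the sequence and says nothing of a factor bound there. The genes lie on GRCm39 at chr13:75237284-75284898 (Pcsk1), chr2:143387993-143659507 (Pcsk2), chr7:80038333-80055184 (Furin), chr8:65045555-65146435 (Cpe), chr1:97722839-98023399 (Pam), chr2:113606688-113660094 (Scg5) and chrX:7786043-7790649 (Pcsk1n), and all 7 are annotated as protein-coding.

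The counts were estimated per transcript, so the share of each gene held by its transcripts could be followed. In Pcsk1, Pcsk2, Cpe, Scg5 and Pcsk1n a single transcript held on average at least 98.8% of the gene's counts. Pam was spread over Pam-210 (73.4% on average), Pam-201 (13.0%) and Pam-202 (12.1%). In the current annotation of GRCm39, Pam-201 and Pam-202 hold a coding exon of 318 bases at chr1:97791928-97792245 on the minus strand, exon 15 of the 26 of Pam-201, that Pam-210 leaves out. Its length is a multiple of 3, so the frame is kept (coding lengths of 2937, 2934 and 2619 bases for Pam-201, Pam-202 and Pam-210). The optional exon lies between the parts of the protein that hydroxylate the glycine and that release the amide. Pam-210 also has a different first exon, and Pam-202 differs from Pam-201 by 3 coding bases further on. The shares were estimated on earlier versions of Pam-201, Pam-202 and Pam-210, of 4095, 4102 and 3630 bases. In the current annotation they have 4723, 4720 and 4461 bases. Differences other than the exon can therefore enter the split. The joins are shown because they are what sets the transcripts apart at this place: each line gives 30 bases of the exon before and 120 bases after, and capitals mark bases of the optional exon.
Pam-201: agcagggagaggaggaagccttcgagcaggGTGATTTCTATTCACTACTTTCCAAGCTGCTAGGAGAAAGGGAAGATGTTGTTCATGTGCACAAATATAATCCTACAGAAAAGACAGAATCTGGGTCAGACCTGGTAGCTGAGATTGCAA
Pam-210: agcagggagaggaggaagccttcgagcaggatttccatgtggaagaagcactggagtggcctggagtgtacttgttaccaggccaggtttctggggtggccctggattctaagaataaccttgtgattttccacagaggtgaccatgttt

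Pam-201 held 9.66%, 7.82% and 14.4% of the Pam counts in control cells at 2.8 mM and 19.1%, 20.9%, 21.9% and 18.3% at 16.7 mM. In Pcbp2 βKO cells it held 8.54%, 7.38%, 4.06%, 9.17% and 10.2% at 2.8 mM and 14.7%, 16.01%, 15.1%, 11.7% and 11.98% at 16.7 mM. All high-glucose samples were thus above all low-glucose samples within each genotype, and at 16.7 mM all Pcbp2 βKO samples were below all control samples. The differences were 9.41 percentage points for glucose in control cells (exact permutation p = 0.0571, adjusted p = 0.163), 6.02 for glucose in Pcbp2 βKO cells (exact permutation p = 0.00794, adjusted p = 0.106) and -6.14 between Pcbp2 βKO and control cells at 16.7 mM (exact permutation p = 0.0159, adjusted p = 0.106). Each p is the smallest that its design allows, and after adjustment over the 20 share tests none passed.

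Pam-210, the form without the exon, differed in the other direction. Shares of the same gene are parts of a fixed whole, so this was not independent of the Pam-201 result. The Pam-210 share was 76.8%, 76.3% and 72.9% in control cells at 2.8 mM and 65.1%, 65.3%, 61.5% and 65.5% at 16.7 mM. In Pcbp2 βKO cells it was 77.8%, 79.8%, 82.9%, 79.1% and 79.8% at 2.8 mM and 70.2%, 68.5%, 73.6%, 73.2% and 79.7% at 16.7 mM. The glucose difference was -11.0 points in control cells without overlap (exact permutation p = 0.0571, adjusted p = 0.163) and -6.85 points in Pcbp2 βKO cells, where replicate 5 at 16.7 mM lay in the low-glucose range (exact permutation p = 0.0238, adjusted p = 0.119). Pcbp2 βKO cells were higher by 4.54 points at 2.8 mM (exact permutation p = 0.0357, adjusted p = 0.143) and by 8.72 points at 16.7 mM (exact permutation p = 0.0159, adjusted p = 0.106), without overlap at either concentration.

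Pam-202 lay between 6.24% and 14.7% over all 17 samples, and its ranges overlapped in every comparison. The 3 transcripts share most of their length, so their split is an estimate of the quantification model and rests on reads over the few places where they differ. The 2 tested Furin transcripts, Furin-201 (81.65% on average) and the retained-intron form Furin-207 (5.82%), rested on few counts, and the ranges overlapped in all 4 comparisons.

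**Figure D5:**
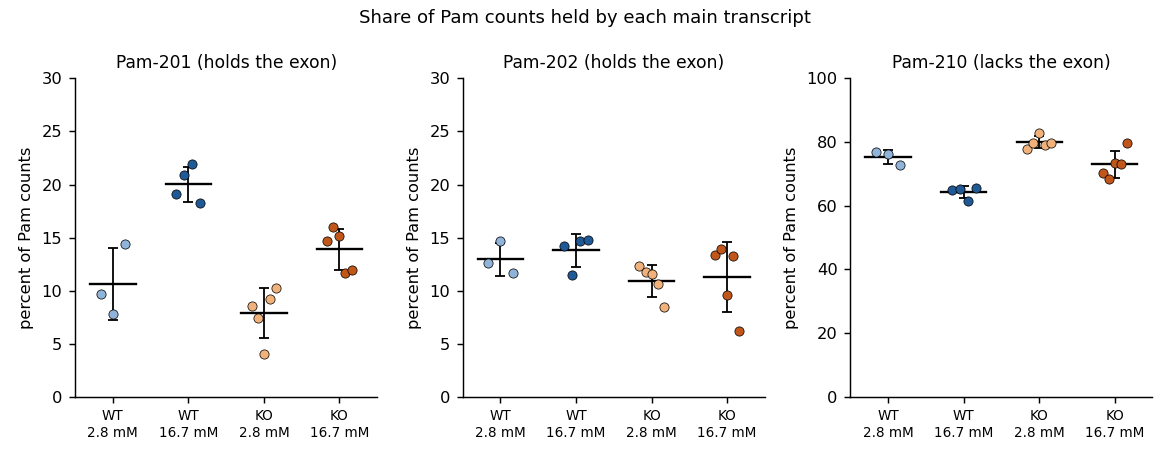
Percent of the estimated Pam counts held by Pam-201, Pam-202 and Pam-210 in each of the 17 samples (WT, control; KO, Pcbp2 βKO), with vertical axes to 30% for the first 2 and to 100% for Pam-210. Points are samples, long bars means and whiskers SD. The mean share of Pam-201 goes from 10.6% to 20.03% with glucose in control cells and from 7.87% to 13.9% in Pcbp2 βKO cells.

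The rest of the processing route was followed in lists chosen with earlier results of these data known. Among other enzymes that modify peptides in the secretory pathway 3 of 8 were called higher with glucose in control cells and 6 of 8 in Pcbp2 βKO cells, and 0 lower in either, beside 7.15% and 13.4% of all genes called higher. The list's median log2 fold changes were 0.45 and 0.72, against 0.04 and 0.01 over all genes. Rnpep, aminopeptidase B, which trims basic residues from the amino end, was higher by 0.86 and 1.16 on the log2 scale (SE 0.227 and 0.187, edgeR adjusted p = 0.0154 and 0.000175), and Qpctl, a Golgi glutaminyl cyclase, by 0.84 and 0.85 (SE 0.247 and 0.202, edgeR adjusted p = 0.0272 and 0.0036). Among 6 other proprotein convertases, 1 was called with glucose in Pcbp2 βKO cells, beside 23.8% of all genes called in either direction. It was Pcsk6, which was lower (-1.38, SE 0.424, edgeR adjusted p = 0.0194).

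Of 6 tested carboxypeptidases of the family of Cpe, 1 was called higher with glucose in Pcbp2 βKO cells, Cpn1 (0.90, SE 0.331, edgeR adjusted p = 0.0476), beside 13.4% of all genes called higher. Cpxm2, a family member without known enzyme activity, had mean levels of 2.58 and 3.54 CPM in control against 0.0282 and 0.0426 CPM in Pcbp2 βKO cells at 2.8 and 16.7 mM, and was called lower at both (edgeR adjusted p = 0.000786 and 0.000736). The Pam enzyme needs copper and ascorbate, and of 5 genes that supply them 2 were called higher with glucose in control cells and 3 in Pcbp2 βKO cells (7.15% and 13.4% of all genes). Cyb561, which passes electrons from cytosolic ascorbate into the granule, was higher by 1.18 and 1.52 (SE 0.275 and 0.226, edgeR adjusted p = 0.00814 and 8.61e-05), and Slc31a1, the copper importer, by 1.16 and 1.25 (SE 0.280 and 0.228, edgeR adjusted p = 0.00984 and 0.000497). Slc23a2, an ascorbate transporter, was lower in Pcbp2 βKO than in control cells at 2.8 mM (-0.79, SE 0.187, edgeR adjusted p = 0.0301) and at 16.7 mM (-0.85, SE 0.174, edgeR adjusted p = 0.0129).

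Of 16 tested substrate genes of the route 7 were called higher and 0 lower with glucose in control cells, and 10 higher and 3 lower in Pcbp2 βKO cells. Over all genes 13.8% and 23.8% were called in either direction, 7.15% and 13.4% higher. Ins1, one of the insulin genes of the mouse, was higher by 2.75 in control and 5.53 in Pcbp2 βKO cells (SE 0.304 and 0.276, edgeR adjusted p = 0.000114 and 2.3e-09), and was lower in Pcbp2 βKO than in control cells at 2.8 mM (-3.04, SE 0.263, edgeR adjusted p = 2.32e-06). Vgf, a granin-like precursor, was higher by 2.65 and 2.91 (SE 0.858 and 0.698, edgeR adjusted p = 0.0429 and 0.00402). Npy, neuropeptide Y, was lower in Pcbp2 βKO than in control cells at both concentrations (-5.71 and -2.79, SE 0.809 and 0.690, edgeR adjusted p = 0.000422 and 0.045). Ins2 and Iapp, the main other cargo of the granule, are added here although other substrates differed more. Ins2 was higher by 1.66 and 2.29 (SE 0.273 and 0.225, edgeR adjusted p = 0.00108 and 3.33e-06), and Iapp, the amyloid polypeptide precursor, which is amidated, by 1.47 and 1.89 (SE 0.363 and 0.298, edgeR adjusted p = 0.011 and 0.000147). The 3 substrates called lower with glucose in Pcbp2 βKO cells were Gcg (-2.92), Ppy (-1.92) and Pyy (-1.88), hormones of other islet cells. Of 8 genes of sorting and granule maturation 2 were called higher and 1 lower in control cells and 3 higher in Pcbp2 βKO cells, beside 13.8% and 23.8% of all genes called in either direction. Those called higher in both were Hid1 (1.55 and 1.68, SE 0.288 and 0.234, edgeR adjusted p = 0.00221 and 5.08e-05) and Ptprn (1.96 and 1.77, SE 0.437 and 0.350, edgeR adjusted p = 0.00646 and 0.000932), and the gene called lower in control cells was Vps41 (-0.60, SE 0.159, edgeR adjusted p = 0.0168). Of 4 genes of cargo degradation 1 was called with glucose in each genotype, beside 13.8% and 23.8% of all genes called in either direction. Ctsd, a lysosomal protease, was lower in both (-0.85 and -0.99, SE 0.142 and 0.119, edgeR adjusted p = 0.0012 and 1.59e-05). Outside the 2 glucose contrasts the lists held few calls, with 0 in the peptide-modifying, sorting and degradation lists in either knockout comparison in edgeR.

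Over the 17 samples, which share their groups and their libraries, log2 CPM of Pcsk1 correlated with that of Pcsk2 at r = 0.848 and with Pam at 0.792, and with Pcsk1n at -0.08. Pcsk2 correlated with Pam at 0.805 and with Scg5 at 0.795, and Cpe most with Scg5, at 0.785. Among 10013 genes with a mean of at least 5 CPM, the 3 most like Pcsk1 in this measure were Gm14097 (0.993), Syp (0.988), which encodes the vesicle protein synaptophysin, and Vamp2 (0.987), which encodes a vesicle fusion protein. The first for each of the other members were Plat for Pcsk2 (0.981), Tspan3 for Scg5 (0.926), Entpd3 for Pam (0.910), Etv1 for Cpe (0.905), H2ac18 for Pcsk1n (0.889) and Fgd2 for Furin (0.878).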

How the data were processed

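The authors estimated transcript abundance with Kallisto against the GRCm39 transcriptome and deposited, for each sample, estimated counts, TPM and effective lengths per transcript (142376 transcripts). The study's own model had a batch factor whose levels are not given in the sources used here. Transcript values were added up per gene and rounded, filtered by filterByExpr over the 4 groups, scaled by TMM and tested in edgeR 4.0.16 (glmQLFit and glmQLFTest, R 4.3.3) in 1 fit of group means over all 17 samples; calls needed both a Benjamini-Hochberg adjusted p below 0.05 and more than a 1.5-fold difference. CPM are rounded counts scaled to a common total by the TMM-scaled library size, and SE is the log2 fold change divided by the root of the F statistic. TPM was used for levels between genes and in limma 3.58.1. DESeq2 1.42.0 was an alternative. Ratios and shares were tested by exact two-sided permutation in SciPy, with Benjamini-Hochberg adjustment over each family. A transcript was tested at a mean share of at least 5% in genes with at least 2 such transcripts. Every script that tests many genes was tested on simulated data. Files held between 47385513 and 82419400 estimated counts per sample, and counting error was not measured apart from the spread between samples. Furin had the fewest counts of the members. Same-numbered samples were assumed to be pairs only for glucose in control cells, where every correlation of their deviations was over a chosen limit of 0.1. Fits with the number as a block were also run in the other comparisons, as alternatives without an assumed pairing. Single correlations over that limit also arose in the other comparisons. The 7 genes, the lists and the named genes (members, called list genes and the 3 most alike) were chosen with earlier results of these data known. Gene positions are from GENCODE vM39, whose transcript versions are later than those in the files. Some list results are not reported here.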

Additional observations from a re-analysis of the deposited data

Results flagged for a closer look

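Over 48 sets of 4 or 5 samples (the members' CPM, the 4 ratios and the tested transcript shares), the gap between the highest or lowest sample and its nearest neighbour exceeded Dixon's limit in 3. Chance gives about 1 in 20, so a count of this size is near what chance gives. Pcsk1n stood at 394.6 CPM in Pcbp2 βKO replicate 5 at 16.7 mM, above 231.5 to 275.5 CPM in the other 4 samples of the group. The Pam-202 share was 11.48% in control replicate 2 at 16.7 mM, below 14.21% to 14.73% in the other 3. The Pam-210 share was 61.45% in control replicate 3 at 16.7 mM, below 65.07% to 65.46% in the other 3. No cause was tested for any of them.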

How the results depend on the processing

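Pcsk1 was called higher at 16.7 mM in both genotypes under all 12 alternative fits and without each of the 17 libraries. In control cells the number of members called was 1 with limma on log2(TPM + 1), 1 on log2(TPM + 0.1) and 4 with the replicate block in the 2 groups, and in Pcbp2 βKO cells 1 on total counts alone. At 2.8 mM the knockout comparison called 1 member in DESeq2, 1 without the filter, 2 with only the 2 groups, 2 with that fit and the replicate block, and 1 without the 3 samples that lie apart. At 16.7 mM DESeq2 called 1. Of the ratios 0 passed in same-numbered pairs (the pairing or replicate block). With so few pairs the smallest p of an exact test stays above the threshold. No ratio could pass there, so the result in pairs does not bear on the ratios. Without the 3 samples 0 passed as well, where fewer samples raise the smallest p. Leaving out 1 library gave 1 to 2 members called for glucose in control cells, 2 to 4 in Pcbp2 βKO cells, 0 to 1 for the knockout at each concentration, and 0 to 3 ratios. Pairing by number was assumed only for glucose in control cells, and the block changed no other call there than those of Pam and Pcsk1n. The labels do not say what same-numbered samples share in any comparison.

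These log2 differences changed sign. On total counts alone Cpe was -0.03224 and Scg5 -0.03655 in control cells, Cpe -0.3029, Pcsk1n -0.4023 and Scg5 -0.1489 in Pcbp2 βKO cells, and Pcsk2 0.03286 for the knockout at 2.8 mM. On log2(TPM + 1) and log2(TPM + 0.1) the control values were -0.4338 and -0.4341 for Cpe, -0.3486 and -0.3542 for Pcsk1n, -0.4487 and -0.4494 for Scg5, and -0.2567 and -0.42 for Furin. The Pcbp2 βKO values were -0.05777 and -0.05799 for Pcsk2, -0.8501 and -0.8505 for Cpe, -0.962 and -0.9715 for Pcsk1n, -0.6891 and -0.69 for Scg5, and -0.3161 and -0.4337 for Furin. On the same scales Pcsk2 was 0.05345 and 0.05354 for the knockout at 2.8 mM, Pam -0.4597 and -0.4694 at 16.7 mM, and the Furin interaction -0.05947 and -0.01371. With the replicate block Pcsk2 at 2.8 mM was 0.223 over all samples and 0.03027 in the 2 groups, and Pam at 16.7 mM -0.0377. Without the 3 samples Pcsk1n was -0.1114 with glucose in Pcbp2 βKO cells and -0.06849 between genotypes at 16.7 mM, and the interactions of Cpe and Scg5 were 0.0008895 and 0.09281. The Furin-201 share differed by 2.961 points at 2.8 mM as a share of TPM.

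Without single libraries the sign turned within these ranges: Pcsk1n, glucose in Pcbp2 βKO cells, -0.07948 to 0.1333; Pcsk2, knockout at 2.8 mM, -0.2172 to 0.01647; Pam, knockout at 16.7 mM, -0.6136 to 0.2973; interactions of Pam, -0.01217 to 0.9072, and Scg5, -0.1163 to 0.09282. Insulin per Pcsk1 ranged from -0.409 to 0.1554 in control and from -0.1698 to 0.3321 in Pcbp2 βKO cells. Furin-201 shares ranged from -3.066 to 7.137 and -2.038 to 5.179 points for glucose and from -7.361 to 2.842 and -6.333 to 0.8838 for the knockout at 2.8 and 16.7 mM. Furin-207 ranged from -1.551 to 0.7784 with glucose in Pcbp2 βKO cells and from -2.374 to 0.9519 between genotypes at 2.8 mM, and Pam-202 from -0.3341 to 1.59 for glucose in Pcbp2 βKO cells. None of these had passed the test, apart from Pcsk2 for glucose in Pcbp2 βKO cells and Furin there. The cause was not tested. Of the other values for single genes, ratios and shares, 1536 kept direction and side of the threshold, 55 lost a call and 16 gained one. Counting depth was lowest for Furin among the members, at 365 to 1163 estimated counts.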
